A study of Mus musculus with 6 samples.

Results

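The transcripts of 10 secreted cytokines and chemokines were followed in cultured mouse CD4+ T cells that were given NETs or vehicle. The genes were Il2, Il4, Il10, Il16, Il17a, Ifng, Csf1, Csf2, Osm and Ccl5, listed by name and looked up by gene symbol, and all 10 were found among the 54532 genes of the table. NETs are neutrophil extracellular traps, webs of DNA, histones and granule proteins cast out by neutrophils. There were 3 libraries of naive CD4+ T cells from C57BL/6 spleen that received NETs and 3 libraries of the same cells that received vehicle. All 6 cultures lasted 72 h and shared the same additions, per the labels' protocols: beads against CD3 and CD28, IL-2, and antibodies against IFNγ and against IL-4. The dose and origin of the NETs, the age of the mice, and whether replicates were separate animals or cultures are not stated by the labels. The p-values below therefore measure the spread between these libraries, which may be technical.

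Cytokines are the short-range messages of T cells. IL-2 drives the growth of activated T cells and is made in a burst after the antigen receptor and CD28 are engaged. IFNγ, IL-4 and IL-17A are the signature products of the Th1, Th2 and Th17 helper fates, IL-10 restrains immune responses, and CSF1, CSF2 (GM-CSF) and oncostatin M act on myeloid and stromal cells as well as on blood cells. IL-16 and CCL5 attract cells: IL-16 is cut from a larger precursor and, in human cells, acts through CD4, while CCL5 acts through chemokine receptors that include CCR1 and CCR3. The antibodies against IFNγ and IL-4 in the medium bind the proteins, and the RNA counts given here are of the transcripts.

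Total reads counted in genes ran from 17148910 to 18394828 in the NETs libraries and from 15657622 to 18655997 in the vehicle libraries. Levels are given in CPM (counts-per-million, the usual scaling of reads to a library's total). The 9 genes listed for T cell identity (among them Cd4, Cd3e, Trac and Lck) summed to between 3919 and 4263 CPM with NETs. With vehicle they summed to between 3958 and 4549 CPM. Only Cd4 among them tells CD4+ from CD8+ T cells, and it averaged 884.7 CPM with NETs and 900.3 CPM with vehicle. Over the 13900 genes with enough reads to be tested, edgeR's quasi-likelihood test called 0 genes (0%) at an adjusted p under 0.05, and 1776 genes (12.8%) had an unadjusted p under 0.05. Of those 1776 genes, 934 were higher with NETs (6.72% of genes tested) and 842 lower (6.06%). The groups did not overlap, all NETs libraries lying above or all below all vehicle libraries, in 16.7% of genes tested. Leaving out vehicle replicate 3 changed these counts most: without it edgeR called 405 genes, against 0 to 2 without any other library.

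The 10 transcripts differed widely in reads. Il16 and Osm had at least 728 reads in every library. Ccl5, Il2 and Csf1 had between 6 and 78 reads per library. Il4 and Csf2 had between 2 and 18, which overlaps the lowest values of Csf1, Il10 had 1 read in all, and Ifng and Il17a had none. Summed over the 10 genes, reads came to 3640, 3874 and 3597 in NETs replicates 1 to 3 and to 3596, 3290 and 3066 in vehicle replicates 1 to 3. Il16 and Osm supplied nearly all of them: the other 8 genes together had 156, 161 and 100 reads in the NETs libraries and 155, 140 and 168 reads in the vehicle libraries. Genes from 20 list entries for unrelated tissues, such as liver, pancreas, heart and retina, give a scale for stray reads, and had 0 to 175 reads over the 6 libraries with a median of 2. None of these 20 genes reached the summed reads of Il16, Osm, Il2 (362) or Ccl5 (270), while 1 reached those of Csf1 (161), 2 those of Il4 (48) and 3 those of Csf2 (38).

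**Figure D1:**
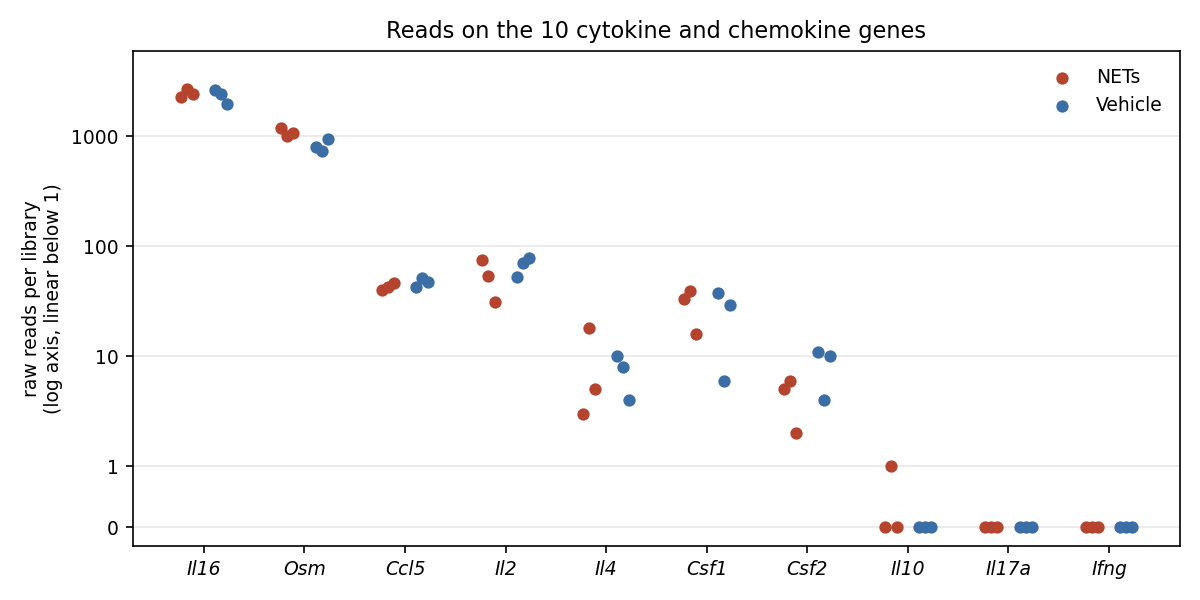
Raw reads per library for the 10 genes, in order of mean FPKM, on a log axis that is linear below 1; each point is 1 library, red for NETs and blue for vehicle. Il16 and Osm lie between 728 and 2707 reads, Il10 has a single read in NETs replicate 2, and Il17a and Ifng lie at 0 throughout.

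Levels of different genes are comparable only per length, and the deposited FPKM values (counts scaled to gene length and library total) gave this order. Il16 came first at 58.0 ± 2.74 FPKM with NETs and 57.4 ± 6.84 FPKM with vehicle (SD, n = 3 each), and Osm second at 40.9 ± 4.73 FPKM with NETs and 32.4 ± 5.28 FPKM with vehicle. Their ranges over the 6 libraries did not meet, at 50.2 to 63.8 FPKM for Il16 and 28.4 to 45.3 FPKM for Osm. Ccl5 followed at 4.08 ± 0.336 FPKM with NETs and 4.71 ± 0.805 FPKM with vehicle. Il2 stood at 2.65 ± 1.12 FPKM with NETs and 3.56 ± 0.944 FPKM with vehicle, and its range of 1.58 to 4.24 FPKM overlapped that of Ccl5 (3.84 to 5.43 FPKM). Below them by mean, Il4 (0.309 to 1.73 FPKM), Csf1 (0.193 to 1.07 FPKM) and Csf2 (0.146 to 0.777 FPKM) overlapped one another, so their order was not resolved. The range of Il4 also overlapped that of Il2, so the step between Il2 and Il4 was not resolved either. Among all genes ranked by mean FPKM, Il16 was at place 2535, Osm at 3897, Ccl5 at 9702 and Il2 at 10338.

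The order of the first pair depended on the length used. The length the authors' FPKM divides by was worked out from reads and FPKM as 2425 bases for Il16 and 1522 bases for Osm, against 7865 and 2272 bases in the length column of the same table. For 6 of the 8 members with any read this length was within 1 base of the median transcript length in the GENCODE M21 annotation; Il16 and Csf1 were the others. With the length column instead, scaled in the same way, Osm came first at a mean of 24.6 (range 19.0 to 30.4) and Il16 second at 17.8 (15.5 to 19.7), and 7 of the 10 genes changed place. Which transcripts of Il16 were present cannot be read from gene counts.

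Il2 had a lower mean level with NETs, but its libraries overlapped. It is on chromosome 3 at 37120523 to 37125959 on the minus strand (ENSMUSG00000027720; coordinates as deposited, which match GRCm38). NETs replicates 1 to 3 had 75, 54 and 31 reads, and vehicle replicates 1 to 3 had 53, 71 and 78 reads. NETs replicate 3 was the lowest of all 6 libraries, while NETs replicates 1 (4.37 CPM) and 2 (2.94 CPM) were above vehicle replicate 1 (2.84 CPM). Adad1, which overlaps Il2 on the opposite strand, had 7 reads with NETs and 4 with vehicle. The level was 3.04 ± 1.28 CPM with NETs and 4.07 ± 1.08 CPM with vehicle (SD, n = 3 each). By edgeR the log2 fold change was −0.41 (95% interval −1.17 to 0.35, adjusted p = 0.653), and it was −0.15 without NETs replicate 3 and −0.76 without NETs replicate 1. Counting error alone would have given an interval of 0.612 to 0.937 for the ratio of summed reads, 0.757, but replicate libraries differed by more than counting error: the squared deviations of reads from the group's rate were 7.22 times what counting gives.

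Csf1 encodes macrophage colony-stimulating factor, which supports monocytes and macrophages. The gene lies on chromosome 3 at 107741048 to 107760469. NETs replicates 1 to 3 had 33, 39 and 16 reads, and vehicle replicates 1 to 3 had 38, 6 and 29 reads. The lowest value was that of vehicle replicate 2, and vehicle replicates 1 and 3 lay within the range of the NETs libraries. Mean levels were 1.66 ± 0.636 CPM with NETs and 1.41 ± 0.895 CPM with vehicle (SD, n = 3 each). The log2 fold change by edgeR was 0.24 (95% interval −0.94 to 1.43, adjusted p = 0.890), and without vehicle replicate 2 its sign changed, to −0.19. Replicate spread was 6.65 times that of counting.

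Csf2, whose product GM-CSF acts on granulocytes, monocytes and dendritic cells, had too few reads to enter the test. It lies on chromosome 11 at 54247271 to 54249667. NETs replicates 1 to 3 had 5, 6 and 2 reads, and vehicle replicates 1 to 3 had 11, 4 and 10 reads. Vehicle replicate 2 lay within the NETs values, so the groups overlapped. The sums were 13 reads with NETs (exact 95% Poisson interval 6.92 to 22.2) and 25 reads with vehicle (16.2 to 36.9). The ratio of rates was 0.497, with an exact conditional interval of 0.234 to 1.01 for counting error only. Here the libraries of a group differed by about what counting gives (1.11 times), and it was the small number of reads that limited the comparison.

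Osm was the only one of the 10 genes with an unadjusted p under 0.05, and its level was higher with NETs. Oncostatin M is a cytokine of the IL-6 family that signals through gp130 paired with the OSM receptor, and in mouse T cells its gene is known as a target of STAT5. The gene lies on chromosome 11 at 4236420 to 4241026 on the plus strand (ENSMUSG00000058755). NETs replicates 1 to 3 had 1185, 1006 and 1082 reads, and vehicle replicates 1 to 3 had 805, 728 and 940 reads. Scaled to depth the level was 69.0, 54.7 and 63.1 in NETs replicates 1 to 3 and 43.1, 46.5 and 58.4 in vehicle replicates 1 to 3. NETs replicate 2 thus lay below vehicle replicate 3, and the groups overlapped at that pair alone.

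Osm averaged 62.3 ± 7.20 CPM with NETs and 49.4 ± 8.04 CPM with vehicle (SD, n = 3 each), a ratio of 1.26. The edgeR log2 fold change was 0.35 (SE 0.13, 95% interval 0.08 to 0.62, unadjusted p = 0.0153), which did not pass after adjustment over all genes (adjusted p = 0.282). Without vehicle replicate 3 it was 0.48 with an edgeR adjusted p of 0.0441, the one setting in which a member was called. Without NETs replicate 1 or without vehicle replicate 1 the unadjusted edgeR p was 0.0821 and 0.0959. Of the 5 members tested, 1 had an unadjusted p under 0.05, against 12.8% of all genes tested, and 0 had groups that did not overlap, against 16.7%. In bulk RNA, more cells with the transcript and more transcript per cell cannot be told apart.

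Myeloid cells can also make oncostatin M, and their markers had the following levels, with 0 markers passing edgeR's adjusted threshold. The 7 macrophage and monocyte markers summed to 40.5 to 54.5 CPM with NETs and 30.5 to 40.0 CPM with vehicle. Of the 6 of them that were tested, 5 had a log2 fold change above 0, and Lyz2, lysozyme, was at 0.63 (edgeR adjusted p = 0.223). Csf1r was at 0.07, Cd68 at 0.11, Adgre1 at 0.74, Cd14 at 0.93 and Itgam at −0.25. Besides Lyz2, Adgre1 had groups without overlap, at 2.15 to 2.45 CPM with NETs and 0.590 to 2.11 CPM with vehicle. Groups did not overlap in 16.7% of all genes tested. Without Lyz2 the sums of the list overlapped, at 9.78 to 16.0 CPM with NETs and 9.51 to 12.5 CPM with vehicle. The 9 neutrophil markers summed to 4.13 to 4.61 CPM with NETs and 1.55 to 2.87 CPM with vehicle. Among them S100a9 had 16, 24 and 20 reads with NETs and 0, 0 and 0 with vehicle, S100a8 had 7, 11 and 10 with NETs and 0, 1 and 0 with vehicle, and Ly6g was at 0 in all libraries. Without S100a8 and S100a9 the sums overlapped, at 2.66 to 2.86 CPM with NETs and 1.55 to 2.81 CPM with vehicle. Lyz2, S100a8 and S100a9 were left out because they made up most of the difference in these same libraries. The overlaps that remain are therefore a description and no test. Ltf had 7, 7 and 5 reads with NETs and 10, 3 and 10 with vehicle, and Mpo was at 0.34 (edgeR adjusted p = 0.773). The difference between the group means of Osm was 12.9 CPM. The part of these cells in it was not tested.

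**Figure D2:**
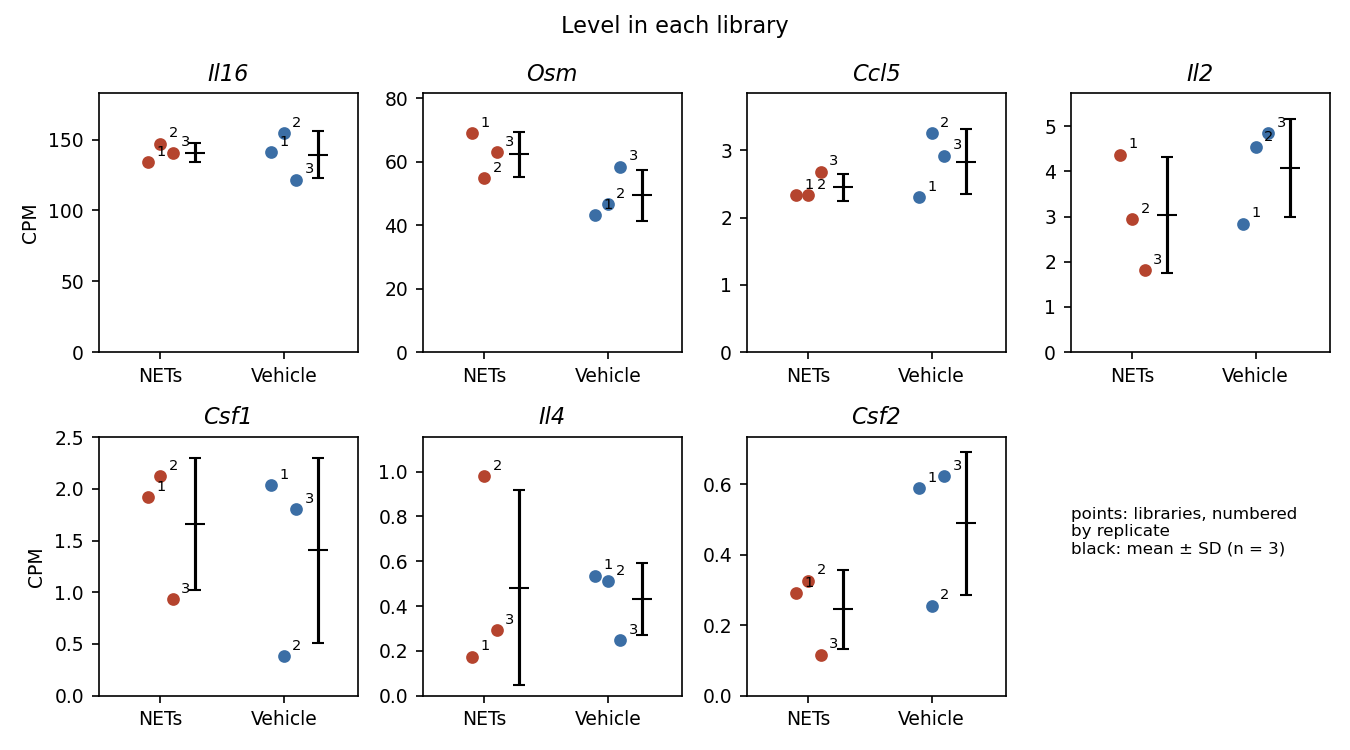
Level in CPM (linear axes from 0) of the 7 genes with 10 or more reads in all, in NETs libraries (red, left) and vehicle libraries (blue, right), with the replicate number beside each point and the mean ± SD (n = 3) in black. For Osm, NETs replicate 2 at 54.7 CPM lies below vehicle replicate 3 at 58.4 CPM, and for Il4 the value of NETs replicate 2 (0.979 CPM) stands above the other libraries.

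Il16 had the most reads of the 10, and its groups overlapped. The gene lies on chromosome 7 at 83642825 to 83745726 on the minus strand (ENSMUSG00000001741). NETs replicates 1 to 3 had 2299, 2707 and 2415 reads, and vehicle replicates 1 to 3 had 2636, 2422 and 1958 reads. The NETs values lay inside the vehicle range once scaled to depth, at 133.9 to 147.2 CPM with NETs and 121.7 to 154.7 CPM with vehicle. The log2 fold change by edgeR was 0.03 with a 95% interval of −0.18 to 0.23 (adjusted p = 0.942), and its sign changed without NETs replicate 2 or vehicle replicate 3. Part of the Il16 locus is shared with Stard5, which overlaps it on the opposite strand and had 1035 reads with NETs and 983 with vehicle. Use of strand in counting is not stated, so reads in the shared part cannot be told apart.

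Ccl5 was low and even. This chemokine is a typical product of memory and effector T cells, and its gene lies on chromosome 11 at 83525778 to 83530518. NETs replicates 1 to 3 had 40, 43 and 46 reads, and vehicle replicates 1 to 3 had 43, 51 and 47 reads. Levels were 2.45 ± 0.201 CPM with NETs and 2.83 ± 0.483 CPM with vehicle (SD, n = 3 each). Scaled to depth, vehicle replicate 1 was the lowest library and vehicle replicate 2 the highest, with all NETs libraries between them. The edgeR log2 fold change was −0.19 (95% interval −0.89 to 0.51, adjusted p = 0.845), and replicates differed by 0.866 times what counting gives.

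**Figure D3:**
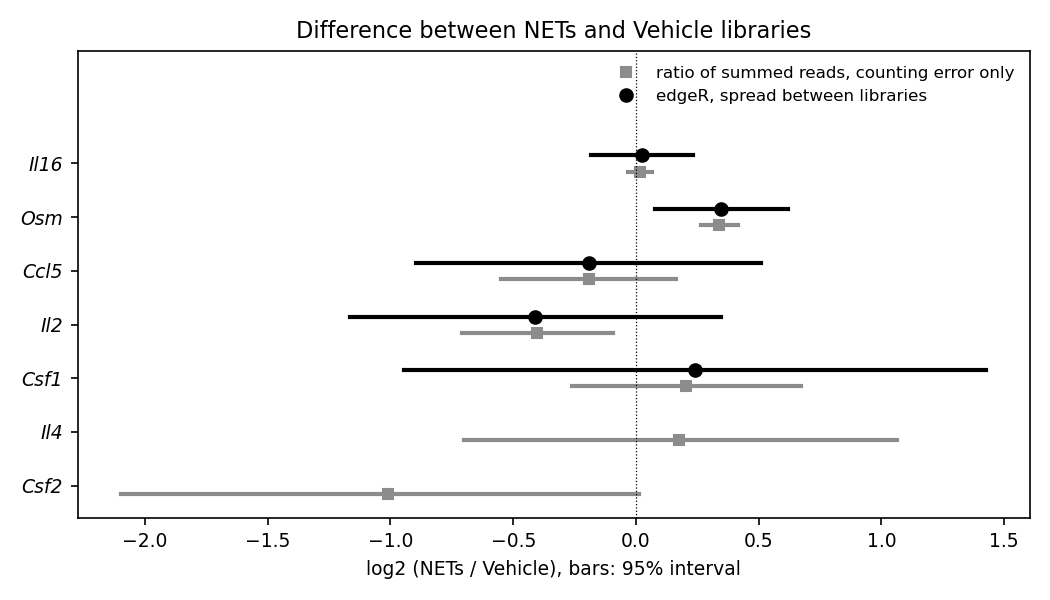
Log2 of NETs over vehicle for the 7 genes with 10 or more reads in all. Black points and bars are edgeR fold changes with 95% intervals from the spread between libraries (5 genes tested), and grey squares and bars are ratios of summed reads with exact 95% intervals for counting error only. The edgeR interval of Osm lies above 0 and the other 4 include 0; the counting interval of Il2 lies below 0 while its edgeR interval does not.

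The signature cytokines of helper fates had few or no reads in both groups. Il4 (chromosome 11, 53602982 to 53618669, minus strand) had 3, 18 and 5 reads in NETs replicates 1 to 3 and 10, 8 and 4 reads in vehicle replicates 1 to 3. NETs replicate 2 held 18 of the 26 NETs reads. The sum with NETs had an exact 95% Poisson interval of 16.98 to 38.1, and the vehicle sum of 22 reads one of 13.8 to 33.3. The ratio of rates was 1.13 (exact conditional interval 0.616 to 2.09, counting error only), and without NETs replicate 2 it was 0.534. Spread among libraries was 3.91 times that of counting, and Il4 did not have enough reads to enter the edgeR test.

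Il10 (chromosome 1, 131019845 to 131024974) had 1 read, in NETs replicate 2, with an exact Poisson interval of 0.0253 to 5.57 reads for the NETs group. The vehicle libraries had 0 reads, which allows up to 3 counts over the group, or 0.0595 CPM. Il17a (chromosome 1, 20730905 to 20734496) and Ifng (chromosome 10, 118441046 to 118445892) had 0 reads in each of the 6 libraries. For either gene the limit of 3 counts over a group is 0.0569 CPM with NETs and 0.0595 CPM with vehicle. The exact interval reaches 0.0700 CPM with NETs and 0.0732 CPM with vehicle. These are upper limits for counting error. Of all genes in the table, 54.6% had no read in any library. The long non-coding RNA Ifngas1, 56143 bases from Ifng and named here after its values were seen, had 0, 5 and 14 reads in NETs replicates 1 to 3 and 6, 7 and 2 reads in vehicle replicates 1 to 3.

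The 250 bases upstream of the start site are shown for these helper cytokines and for Il2, from RefSeq (GRCm38.p6), since they place genes with 0 reads beside genes with reads from the same cultures. Among the 10 genes, 7 had an entry in that table. Il4 had 2 entries, and the one whose start site is nearest to the deposited gene start is the one shown and counted in the next paragraph. Capitals mark the NFAT core GGAAA, bound by the factor that calcium signals from the T cell receptor switch on, and the TATA box TATAAA. They also mark TGANTCA, a loose form of the AP-1 motif that takes any base at N. Each was searched on both strands.
Il4 (chr11:53618666-53618915, minus strand): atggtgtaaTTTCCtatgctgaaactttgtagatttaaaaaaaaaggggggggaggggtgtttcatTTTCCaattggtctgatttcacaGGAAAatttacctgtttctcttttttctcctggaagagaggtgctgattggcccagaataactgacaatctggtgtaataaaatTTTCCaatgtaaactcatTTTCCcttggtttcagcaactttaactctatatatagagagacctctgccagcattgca
Ifng (chr10:118440796-118441045, plus strand): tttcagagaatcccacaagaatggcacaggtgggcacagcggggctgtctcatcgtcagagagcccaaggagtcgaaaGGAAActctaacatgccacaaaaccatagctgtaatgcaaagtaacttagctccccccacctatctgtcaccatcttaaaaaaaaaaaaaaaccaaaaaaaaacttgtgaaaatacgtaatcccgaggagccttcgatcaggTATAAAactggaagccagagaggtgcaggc
Il17a (chr1:20730655-20730904, plus strand): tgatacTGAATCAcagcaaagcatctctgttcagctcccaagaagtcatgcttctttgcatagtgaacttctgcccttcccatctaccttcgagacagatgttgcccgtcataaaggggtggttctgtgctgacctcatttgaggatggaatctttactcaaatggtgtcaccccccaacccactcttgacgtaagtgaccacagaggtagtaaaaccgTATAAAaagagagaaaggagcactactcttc
Il2 (chr3:37125955-37126204, minus strand): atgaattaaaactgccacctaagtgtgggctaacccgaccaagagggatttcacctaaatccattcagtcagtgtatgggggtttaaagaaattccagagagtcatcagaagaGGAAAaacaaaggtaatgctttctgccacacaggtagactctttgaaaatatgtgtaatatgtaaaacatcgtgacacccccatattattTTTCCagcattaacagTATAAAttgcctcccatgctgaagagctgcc

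The NFAT core occurred 5 times upstream of Il4, 1 time upstream of Ifng, 0 times upstream of Il17a and 2 times upstream of Il2, and 55.6% of all 32851 RefSeq promoter windows of this length held at least 1. The loose AP-1 form was found 1 time, at Il17a with the letters TGAATCA, against 6.75% of all windows with any base at N. A TATA box began 30 bases before the start site of Ifng and 31 bases before those of Il17a and Il2, against 12.4% of all windows with one. None of the marked motifs overlapped another. Il2, with 362 reads, and Ifng and Il17a, with 0 reads, thus all had a TATA box in this window. These matches are descriptions of the letters and show neither binding nor its absence.

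Several members lie beside other cytokine genes, and the reads of those neighbours were as follows. Lif, the leukaemia inhibitory factor gene that is 16531 bases from Osm, had 2291 reads with NETs and 2021 with vehicle, with a log2 fold change of 0.12 (edgeR adjusted p = 0.839). For Il13, 12655 bases from Il4, the sums were 24 reads with NETs and 20 with vehicle, near those of Il4. Il3, 15636 bases from Csf2, had 0 reads with NETs and 8 with vehicle, all in vehicle replicate 2. Il21, beside Il2, had 3 reads with NETs and 8 with vehicle, and Il17f, beside Il17a, had 4 with NETs and 9 with vehicle. Il19, a cytokine gene of the IL-10 family beside Il10, had 13 reads with NETs and 5 with vehicle. Ccl9, beside Ccl5, had 104 reads with NETs and 98 with vehicle.

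Among neighbours that are no cytokines, several had many reads beside a member with few. Dyrk2, the next protein-coding gene after Ifng though 409711 bases away, had 5863 reads with NETs and 5739 with vehicle. On the other side of Ifng, Gm9049 at 86941 bases had 0 reads. Mapkapk2, a kinase gene beside Il10, had 12168 reads with NETs and 11135 with vehicle. Kif3a, only 1015 bases from Il4, totalled 599 reads in the NETs libraries and 634 in the vehicle libraries. The gene 4932438A13Rik, the nearest on one side of Il2, had a log2 fold change of −0.44 with an unadjusted edgeR p of 9.39e-05 and an adjusted p of 0.223. P4ha2, near Csf2, was at −0.35 (edgeR unadjusted p = 0.0316, adjusted p = 0.344). Castor1, beside Osm, was at −0.14 and Ahcyl1, beside Csf1, at −0.10, both with an unadjusted p over 0.05. Few reads fell in Heatr9 beside Ccl5 (0 with NETs and 7 with vehicle), and 0 in Pkhd1, Gm9049 and Eps8l3 and in Gm12223, which is antisense to Csf2.

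Other cytokines and chemokines were looked up in a list of 53, of which 18 had enough reads to be tested. In that list 7 genes had 0 reads, among them Il9, Ifnb1 and Ccl20, and 23 had under 15 reads. By edgeR 0 genes passed the adjusted threshold, and 4 were higher and 1 lower at an unadjusted p under 0.05. Over all genes tested, 6.72% were higher and 6.06% lower at that unadjusted threshold. The median log2 fold change was −0.14, against 0.00 over all genes tested. The 4 with the largest means were Ltb at 671.8 CPM, Mif at 247.8 CPM, Tgfb1 at 212.4 CPM and Lta at 150.6 CPM, which are means over 6 libraries with no allowance for length.

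The 4 higher genes were Tnf (log2 fold change 0.40), Ltb, lymphotoxin beta (0.26), Tgfb1 (0.27) and the chemokine Ccl6 (1.09). Tgfb1 had 4140, 4064 and 3979 reads in the NETs libraries and 3291, 2961 and 3455 reads in the vehicle libraries. Its groups did not overlap, as was so for 16.7% of all genes tested. Ccl6, a chemokine of myeloid cells, had 65, 59 and 52 reads in the NETs libraries and 25, 25 and 29 in the vehicle libraries. Il1b, an inflammatory cytokine of myeloid cells, was the lower gene at −1.77, with 3, 13 and 6 reads in the NETs libraries and 22, 28 and 22 in the vehicle libraries. The edgeR adjusted p of these 5 genes lay between 0.238 and 0.314. The levels of macrophage and neutrophil markers are given above, and their part in the values of Ccl6 and Il1b was not tested.

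**Figure D4:**
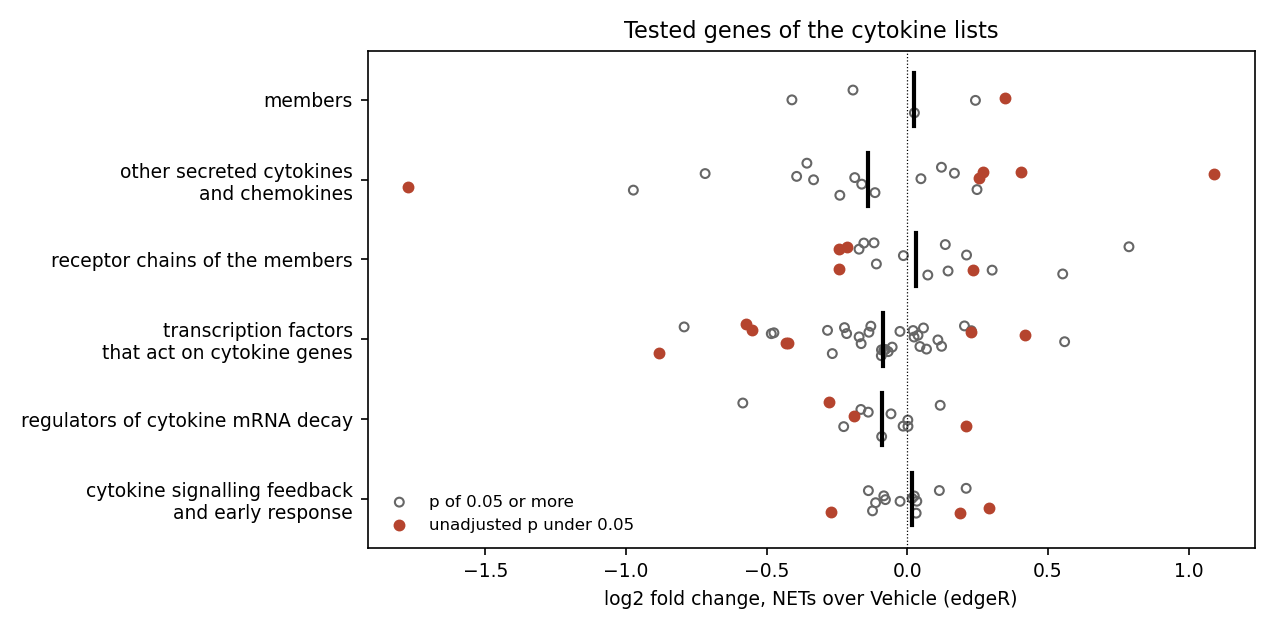
EdgeR log2 fold changes, NETs over vehicle, of the tested genes in 6 lists, with the median of each list as a black bar; filled points had an unadjusted p under 0.05, and no gene passed after adjustment. The members run from −0.41 for Il2 to 0.35 for Osm, and among other cytokines and chemokines Il1b (−1.77) and Ccl6 (1.09) lie farthest from 0.

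The receptors for these cytokines ranged from 3 to 114134 reads over the 6 libraries. Of 22 receptor chains, 16 were tested, and 1 was higher and 3 were lower at an unadjusted p under 0.05. The shares over all genes tested were 6.72% higher and 6.06% lower. After edgeR's adjustment 0 passed, and the median log2 fold change was 0.03. The largest means were those of the IL-2 receptor chains Il2ra (1107 CPM) and Il2rb (1090 CPM), of Cd4 (892.5 CPM) and of the IL-4 receptor gene Il4ra (504.9 CPM). Il2rb was the higher chain, at 0.23 (edgeR adjusted p = 0.277), and Il2rg, the chain shared by several interleukin receptors, was lower at −0.21 (0.324). The others lower were Ifngr1, for the IFNγ receptor, at −0.24 (0.367) and Il6st, for gp130, at −0.24 (0.289).

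Some receptor chains had few reads. Osmr, the specific chain for oncostatin M, had 8, 5 and 0 reads in the NETs libraries and 12, 0 and 12 in the vehicle libraries, while its partner Il6st averaged 267.0 CPM. For CCL5, Ccr1 had 4, 15 and 8 reads in the NETs libraries and 11, 4 and 6 in the vehicle libraries, and Ccr3 had 3 reads in all. Csf1r, the receptor for CSF1, had 28, 12 and 18 reads in the NETs libraries and 31, 8 and 16 in the vehicle libraries. Il17rc had 6 reads with NETs and 11 with vehicle, though its partner Il17ra averaged 272.3 CPM.

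Transcription factors that act on cytokine genes all had enough reads to test. Of 36 factors, 2 were higher and 5 lower at an unadjusted p under 0.05, beside 6.72% higher and 6.06% lower of all genes tested. After edgeR's adjustment 0 passed, and the median log2 fold change was −0.09. The higher ones were Nfatc2 (0.22), of the NFAT family, and Jund (0.42), of the AP-1 family. The lower ones were Jun (−0.57), also of the AP-1 family, Rora (−0.55), Maf (−0.88), Bcl6 (−0.43) and Stat4 (−0.42). The means were largest for Ikzf1 (791.0 CPM), Satb1 (712.5 CPM), Nfkb1 (430.4 CPM) and Stat5b (321.4 CPM). Tbx21, the lineage factor of Th1 cells, averaged 0.59 CPM, and Gata3, that of Th2 cells, 91.6 CPM.

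Genes for proteins that act in the decay of cytokine mRNAs, and genes of cytokine signalling and its feedback, were looked up in the same way. Of 13 regulators of mRNA decay, 1 was higher (Khsrp at 0.21) and 2 were lower (Rc3h2, for roquin-2, at −0.28 and Tnrc6a at −0.19) at an unadjusted p under 0.05. Of 15 genes of signalling and feedback, 2 were higher and 1 lower: the STAT5 feedback genes Cish (0.19) and Socs1 (0.29), and the kinase gene Jak2 (−0.27). Beside these counts, 6.72% of all genes tested were higher and 6.06% lower at that unadjusted threshold. By edgeR with adjustment over all genes 0 of either list passed, and the medians were −0.09 for decay and 0.02 for feedback. Zfp36, for the mRNA-destabilising protein tristetraprolin, is outside the naming rule and is given after its values were seen: it lay farthest from 0 in the decay list, at −0.58 (53.6 CPM with NETs and 81.0 CPM with vehicle, edgeR unadjusted p = 0.0536, adjusted p = 0.398). Of those with the largest means, Cnot1 (0.00), Zfp36l2 (−0.06) and Hnrnpd (0.12) of the decay list, and Jak1 (−0.14), Bcl2 (−0.08), Pim1 (0.03) and Jak3 (−0.11) of the feedback list, had an unadjusted p over 0.05.

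The genes whose profile over the 6 libraries was most like Osm and Il16 were found by the root mean square difference of centred log2 CPM over 9642 genes. For Osm these were Socs1 (0.0316) and Hspbp1 (0.0333), against a median of 0.262 over all genes compared. For Il16 they were Pigc (0.0135) and Yipf4 (0.0214), against a median of 0.179. With 6 libraries these values are a description of likeness.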

How the data were processed

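Bulk RNA sequencing of 3 NETs and 3 vehicle libraries was analysed from the deposited tables. Raw counts for Ensembl genes were deposited by the authors in 2 tables with identical values. A further table holds FPKM computed by the authors, in which reads are divided by a gene's length and the library total. The annotation columns (other values: start, end and length in bases) are also as deposited by the authors. STAR, DESeq2 and build mm9 are named in the submitters' processing notes, with no versions. The counting program and strand use are not named in those notes. Of 54495 genes shared with GENCODE M21 (GRCm38), 98.3% had the same coordinates, all 10 members included, so coordinates are GRCm38.

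Counts were filtered with filterByExpr (13900 genes; 0.135% of reads lay outside), scaled by TMM and tested with edgeR 4.0.16 in R 4.3.3 (robust quasi-likelihood, two-sided, group as the only term), with Benjamini-Hochberg adjustment over all genes tested and a threshold of 0.05. A standard error is the size of the log2 fold change divided by the square root of F. Members with few reads have exact 95% Poisson intervals, or a floor of 3 counts over a group at 0 reads. That floor is below the upper end of the exact interval at 0 reads (3.69). Intervals and floors cover counting error only. CPM uses total counts. The script was tested on simulated data. Alternatives used DESeq2 1.42.0 and limma 3.58.1 (pseudocounts 0.1 and 1 for FPKM, 0.5 CPM for profiles). Genes beyond the members were named by rule: the 4 with the largest means in a list, those at an unadjusted p under 0.05, protein-coding neighbours and overlapping genes of members, and nearest profiles among genes of at least 5 CPM; others, such as receptors with few reads, lineage factors and neutrophil markers, were added after their values were seen. The members and lists were chosen with earlier results of these data known. Pairing of libraries by replicate number is not stated by the labels, and a replicate block was fitted as an alternative.

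Marker lists of other cells gave these summed levels with NETs and with vehicle: CD8 T cells 18.6 to 24.1 and 25.4 to 28.8 CPM, B cells 13.2 to 19.2 and 17.6 to 18.3 CPM, NK cells 0.233 to 0.990 and 0.383 to 0.684 CPM, dendritic cells 0.233 to 0.641 and 0.559 to 2.30 CPM, and stroma and endothelium 197.4 to 246.1 and 225.7 to 308.3 CPM, nearly all of it Pecam1, which T cells also express (2.77 to 5.42 and 3.07 to 6.06 CPM without it).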

Additional observations from a re-analysis of the deposited data

How the results depend on the processing

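No member was called by edgeR under another scaling, filter or unit or with the replicate block, nor by DESeq2 or limma, and 0 of 13900 genes were called in the analysis reported; leaving out a library gave 0 to 1 members and 0 to 405 genes, with the highest values without vehicle replicate 3. All genes called numbered 322 with no filter on low counts, 162 by DESeq2, 1 by limma-voom and 2 by limma-trend on FPKM at either pseudocount. Genes at an unadjusted p under 0.05 numbered 869 (without NETs replicate 1) to 2942 (without vehicle replicate 3), against 1776, and members 0 to 1. Osm stayed between 0.25 and 0.48 on the log2 scale when a library was left out. DESeq2 gave no adjusted p for Il2, Csf1 and Ccl5. Il16 ranged from −0.064 to 0.12 and Csf1 from −0.19 to 0.60 without 1 library. The order of levels changed for 7 members with the deposited gene length. The Il4 ratio ranged from 0.534 to 1.48 and the Csf2 ratio, added after seeing the data, from 0.408 to 0.624. With the replicate block, Osm was at 0.35 (adjusted p = 0.463), and 0 genes were called and 1337 had an unadjusted p under 0.05; same-numbered libraries correlated at −0.0777, −0.153 and −0.328 in their deviations from group means, and no NETs library correlated best with its own number. The causes were not tested. Few reads limit Csf2, Il10, Il17a and Ifng, and for Il4 the libraries also differed by 3.91 times what counting gives.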

Other observations

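Some cytokine transcripts with few reads, named after their values were seen and not tested, were unevenly spread over libraries. Il18, a cytokine of myeloid and epithelial cells, had 11, 11 and 9 reads in the NETs libraries and 2, 2 and 3 in the vehicle libraries, without overlap. Groups without overlap were found for 16.7% of the genes tested, which do not include Il18. All 7 reads of Il22 were in NETs replicate 1, and all 8 reads of Il3 in vehicle replicate 2. Il12b had 1, 4 and 0 reads in the NETs libraries and 17, 0 and 10 in the vehicle libraries.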
